A study of Mus musculus with 16 samples.

Results

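The 9 genes described here are adipogenic transcription factors, chosen by name: Pparg, Cebpa, Cebpb, Cebpd, Klf15, Rxra, Ebf1, Ebf2 and Zfp423. All 9 were found among the 55573 genes of the count table by their Ensembl identifiers, and all 9 passed the filter on low counts that left 20822 genes for testing. They were measured in whole epididymal white adipose tissue (eWAT) from 16 male C57BLKS/J-db/db mice, which lack a working leptin receptor and become obese and diabetic. Every mouse carried the db/db genotype and had received an adeno-associated virus of serotype 8 (AAV8) by injection at 4 weeks of age. In the LRG1 mice (AAV8-LRG1-FL) the vector encoded murine LRG1, leucine-rich alpha-2-glycoprotein 1, with a C-terminal FLAG tag, and in the eGFP controls (AAV8-eGFP) it encoded a green fluorescent protein. There were 4 LRG1 mice and 4 eGFP mice at week 7 of age, and 4 of each at week 10. Both vectors used the CB7 promoter, which is active in many cell types, and cages of mice rather than single mice were assigned to a treatment, so that cage and treatment cannot be told apart. No non-diabetic and no uninjected mice were part of this comparison.

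Fat cells arise from mesenchymal precursors in the stroma of the tissue. Zfp423 and the early B cell factors Ebf1 and Ebf2 mark and commit such precursors, and Cebpb and Cebpd are switched on first when differentiation is triggered in cultured preadipocytes. They induce Pparg and Cebpa, which sustain each other and turn on the genes of the mature adipocyte. PPARG binds DNA as a heterodimer with a retinoid X receptor such as RXRA. Klf15, a Kruppel-like factor induced by glucocorticoids, joins this cascade late and controls nutrient metabolism in fat, liver and muscle. Most of these factors stay on in the adipocyte, and some work in other cells too: Cebpb in macrophages, Ebf1 in B cells and in the mural cells of vessels.

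Library totals were 45376227 to 67539937 counts. Lrg1 itself, which the counts do not separate from the vector's transcript, was at 288 to 478 CPM (counts scaled to TMM-adjusted library totals) in LRG1 mice and at 86.2 to 110.2 CPM in eGFP mice at week 7, and at 286.5 to 624 CPM in LRG1 mice and 99.6 to 115 CPM in eGFP mice at week 10, so no library went against its label. Markers of epididymis and testis, the nearest other tissue, summed to at most 1.25 CPM in any library, and Spag11a and Defb20 were at 0 in all 16. In the eGFP mice of week 10, replicates 1 and 3 stood apart from replicates 2 and 4: the summed level of 14 macrophage markers was 7823 and 8243 CPM in replicates 1 and 3, and 3421 and 4691 CPM in replicates 2 and 4. Results that rest on this group are therefore given with and without replicates 1 and 3, a choice made after seeing the data. The eGFP mice of week 7, at 5193 to 6675 CPM, lay below replicates 1 and 3 and above replicates 2 and 4. Neither pair is thus shown to be the outlier. Replicates 2 and 4, which were kept, lay nearer the LRG1 mice of week 10 in these markers (2272 to 3039 CPM). Values without replicates 1 and 3 therefore describe the mice kept and are no test of the effect. In whole tissue, fewer cells of a type and less RNA per cell cannot be told apart, and this holds for every difference below.

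The 9 genes differed widely in level. Divided by exon length, so that genes can be compared with each other, the mean over the 16 libraries was highest for Cebpa at 79.1 CPM per kb and for Pparg at 55.1 CPM per kb. The heterodimer partner Rxra followed at 25.1 CPM per kb and Ebf1 at 15.6 CPM per kb. Cebpb at 12.3, Klf15 at 10.8 and Zfp423 at 10.1 CPM per kb lay close together, and Cebpd at 5.90 and Ebf2 at 3.57 CPM per kb were lowest. Cebpa was above Pparg, Pparg above Rxra and Rxra above the next gene in every library of each group, so the top of the order did not depend on the group. The order from Ebf1 to Zfp423 did: in LRG1 mice of week 7 it ran Ebf1, Klf15, Zfp423, Cebpb, with Ebf1 and Klf15, Klf15 and Zfp423, and Zfp423 and Cebpb overlapping, whereas in eGFP mice of week 7 it ran Cebpb, Ebf1, Zfp423, Klf15, with only Zfp423 and Klf15 overlapping. In LRG1 mice of week 10 the order was that of the LRG1 mice of week 7, with Klf15, Zfp423 and Cebpb overlapping their neighbours. In eGFP mice of week 10 every neighbour from Ebf1 down to Ebf2 overlapped.

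**Figure D1:**
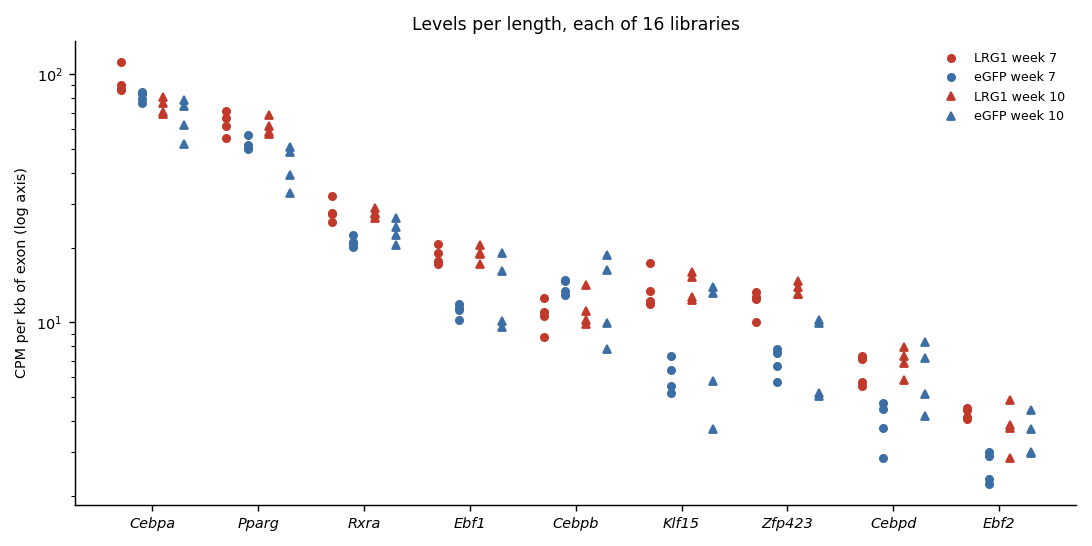
Levels of the 9 genes in CPM per kb of exon, on a log axis, in each of the 16 libraries (red LRG1, blue eGFP; circles week 7, triangles week 10). Cebpa, Pparg and Rxra kept the top 3 places in every group, and Cebpb, Klf15 and Zfp423, with means of 12.3, 10.8 and 10.1 CPM per kb, changed places between groups.

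Of the 9 genes, all but Cebpd and Ebf2 (7) had a promoter entry in RefSeq (GRCm38.p6), each a window of 300 bases with 250 before and 50 after a transcription start. The members whose counts passed the test at week 7 or week 10 have 10 such windows, of which 1 per gene, the first start or for Pparg the downstream one, is printed 5′ to 3′ on the strand of the gene, since these genes differed between the treatments in 1 direction. Capitals mark 3 motifs searched on both strands: the EBF palindrome CCCNNGGG, the C/EBP core TTGCNNAA and the GC box GGGCGG. Pparg has a downstream start, 61115 bases from the 5′ end of its annotation, from which the PPARG2 form of adipocytes is made, and the window there (chr6:115421816-115422115, plus strand) holds 2 C/EBP cores.
Pparg downstream start: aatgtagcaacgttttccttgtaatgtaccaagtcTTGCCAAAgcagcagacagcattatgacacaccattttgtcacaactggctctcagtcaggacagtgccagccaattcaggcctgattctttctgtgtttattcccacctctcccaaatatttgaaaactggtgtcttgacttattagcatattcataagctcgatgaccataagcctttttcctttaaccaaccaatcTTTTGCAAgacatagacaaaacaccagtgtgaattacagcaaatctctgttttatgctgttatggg
Klf15 (chr6:90462326-90462625, plus strand) has 1 GC box.
Klf15: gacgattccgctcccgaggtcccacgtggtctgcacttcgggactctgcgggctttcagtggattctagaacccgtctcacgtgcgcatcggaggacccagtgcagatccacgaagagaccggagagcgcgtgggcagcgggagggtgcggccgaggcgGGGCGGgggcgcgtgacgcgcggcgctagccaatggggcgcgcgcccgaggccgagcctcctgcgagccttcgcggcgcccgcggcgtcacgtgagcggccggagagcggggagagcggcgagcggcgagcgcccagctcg
Rxra (chr2:27676951-27677250, plus strand) has 4 GC boxes.
Rxra: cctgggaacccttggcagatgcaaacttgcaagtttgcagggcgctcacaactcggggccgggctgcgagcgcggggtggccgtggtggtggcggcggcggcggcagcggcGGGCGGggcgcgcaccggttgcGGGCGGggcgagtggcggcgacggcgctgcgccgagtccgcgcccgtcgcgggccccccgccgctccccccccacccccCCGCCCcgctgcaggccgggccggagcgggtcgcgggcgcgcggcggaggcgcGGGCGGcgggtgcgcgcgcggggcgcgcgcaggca
Ebf1 (chr11:44617850-44618149, plus strand) has none of the 3 motifs and is rich in runs of A and T.
Ebf1: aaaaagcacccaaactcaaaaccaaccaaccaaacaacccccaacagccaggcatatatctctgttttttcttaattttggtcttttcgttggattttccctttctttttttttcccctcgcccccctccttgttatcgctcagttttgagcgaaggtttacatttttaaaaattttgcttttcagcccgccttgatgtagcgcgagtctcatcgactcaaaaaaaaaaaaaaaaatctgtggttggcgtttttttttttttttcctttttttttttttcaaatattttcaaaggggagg
Zfp423 (chr8:87959546-87959845, minus strand) has 2 C/EBP cores and 2 GC boxes.
Zfp423: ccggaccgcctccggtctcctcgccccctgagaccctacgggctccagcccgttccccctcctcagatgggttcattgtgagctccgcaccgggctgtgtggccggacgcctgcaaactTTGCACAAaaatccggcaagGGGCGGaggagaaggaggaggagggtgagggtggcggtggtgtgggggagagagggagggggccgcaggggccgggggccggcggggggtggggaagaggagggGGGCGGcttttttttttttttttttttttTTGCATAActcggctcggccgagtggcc
Of all 32851 promoter windows of this length, 10.8% hold the C/EBP core, 35.7% the GC box and 13.7% the EBF palindrome. The CCAAT box, CCAAT, is in 37.4% of them. Among the windows printed it occurs in those of Pparg downstream and Klf15. It also occurs in a Pparg window that is not printed (chr6:115362099-115362398). Motifs differed between the starts of a gene: the other Pparg windows hold no C/EBP core, the other Rxra window no GC box, and the other Zfp423 window 1 EBF palindrome. A match of letters is a description and not a site. The counts are per gene, so they do not say which Pparg start was used.

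At week 7, 5 of the 9 factors were higher in LRG1 mice than in eGFP mice: Klf15, Zfp423, Ebf1, Ebf2 and Rxra, by 1.34-fold (Rxra) to 2.24-fold (Klf15). None was called lower, and Pparg, Cebpa, Cebpb and Cebpd did not pass the test, which was an adjusted p below 0.01 in edgeR's quasi-likelihood F test with Benjamini-Hochberg adjustment over all genes. Of all tested genes, 7.37% were called higher in LRG1 mice and 10.7% lower. The median log2 fold change was 0.70 over the 9 factors and 0.01 over all tested genes. In 7 of the 9 genes every LRG1 mouse was above every eGFP mouse and in 1, Cebpb, every LRG1 mouse was below, against 18.6% and 19.4% of all tested genes.

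**Figure D2:**
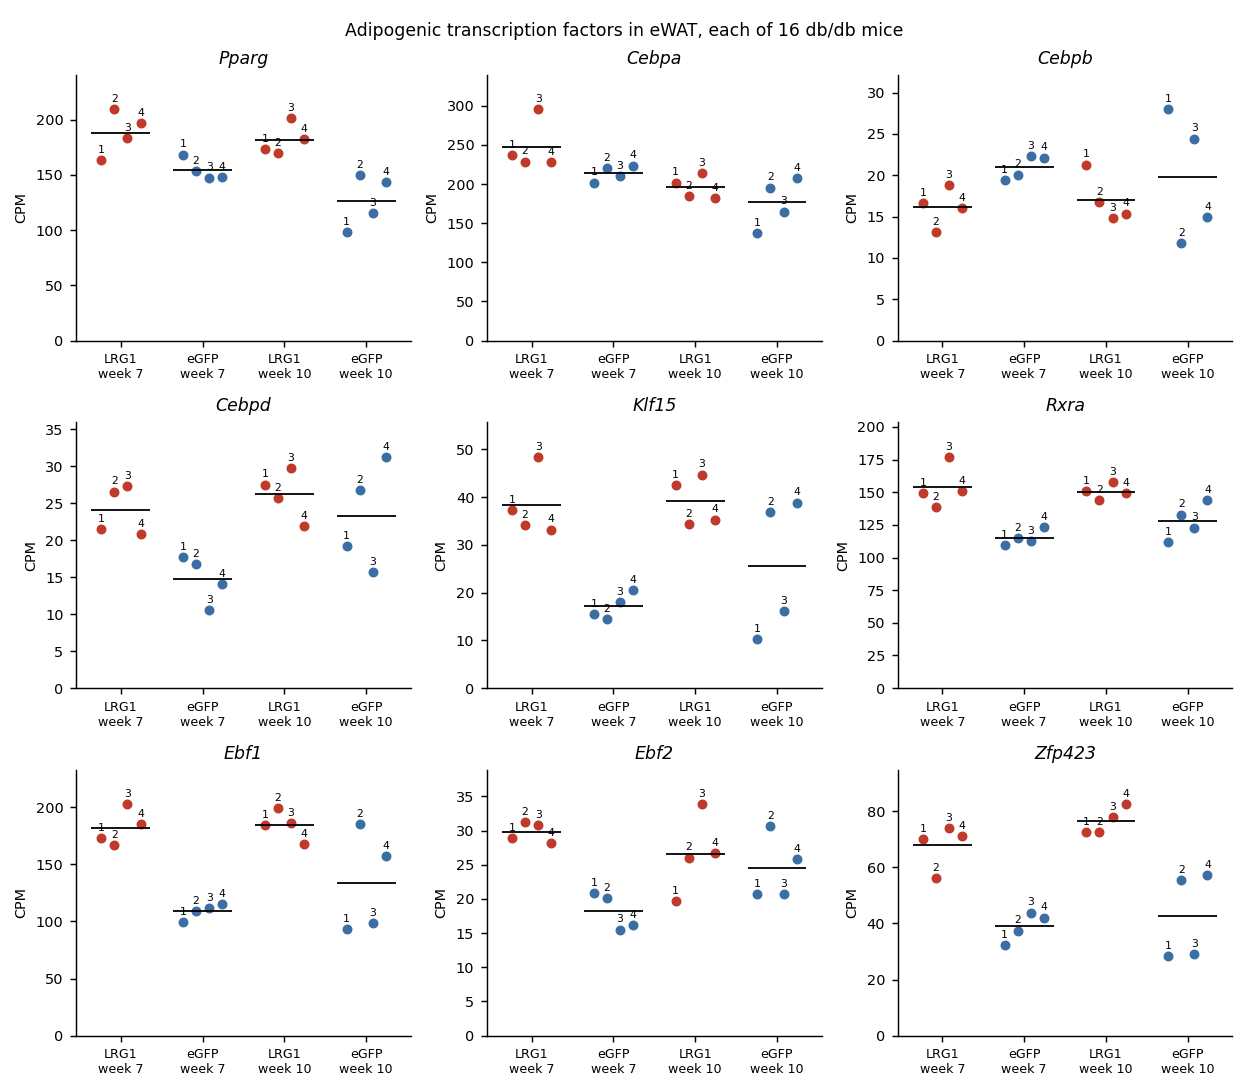
CPM of each factor in each mouse, in 9 panels with axes from 0, with LRG1 (red) left of eGFP (blue) at each week, replicate numbers above the points and lines at group means. At week 7 the LRG1 points of Klf15 (33.2 to 48.4 CPM) lie above all eGFP points (14.5 to 20.5 CPM), and at week 10 the eGFP points of Klf15 split into 10.3 and 16.2 CPM against 36.8 and 38.8 CPM.

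Among the factors of precursors, Zfp423 (ENSMUSG00000045333, chr8:87661810-87959595, minus strand, 14 exon blocks), a zinc finger protein that marks committed preadipocytes, was at 69.9, 56.3, 74.1 and 71.0 CPM in LRG1 mice of week 7, against 32.4, 37.5, 43.9 and 42.1 CPM in eGFP mice. The groups did not overlap, although LRG1 replicate 2 lay below the other 3. The log2 fold change was 0.80 (SE 0.20, adjusted p = 0.0060 with edgeR).

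Ebf1 (ENSMUSG00000057098, chr11:44617317-45008091, plus strand, 17 exon blocks) was at 173, 167, 203 and 185 CPM in LRG1 mice, against 99.4, 109, 112 and 115 CPM in eGFP mice. All LRG1 mice were well above all eGFP mice, and the log2 fold change was 0.74 (SE 0.17, adjusted p = 0.0038 with edgeR). Its paralog Ebf2 (ENSMUSG00000022053, chr14:67233292-67430918, plus strand, 17 exon blocks), which in mice selects precursors of brown and beige fat, was at 28.9, 31.2, 30.8 and 28.2 CPM in LRG1 mice, against 20.8, 20.1, 15.5 and 16.2 CPM in eGFP mice. The LRG1 mice lay close together and clear of the eGFP mice, with a log2 fold change of 0.71 (SE 0.15, adjusted p = 0.0028 with edgeR).

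The early factors of the C/EBP family went opposite ways without passing the test. Cebpd (ENSMUSG00000071637, chr16:15887286-15891031, plus strand, 1 exon) was at 21.6, 26.6, 27.4 and 20.8 CPM in LRG1 mice, against 17.7, 16.7, 10.6 and 14.1 CPM in eGFP mice. The groups did not overlap, and the log2 fold change of 0.70 (SE 0.20) had an adjusted p of 0.012 with edgeR, just short of passing. Cebpb (ENSMUSG00000056501, chr2:167688915-167690418, plus strand, 1 exon) was at 16.6, 13.1, 18.8 and 16 CPM in LRG1 mice, against 19.4, 20.1, 22.3 and 22.1 CPM in eGFP mice. It was the only factor whose LRG1 mice all lay below the eGFP mice, with a log2 fold change of -0.38 (SE 0.21, adjusted p = 0.19 with edgeR). Fitted on the 8 libraries of week 7 alone, which do not share in the wider spread of week 10, Cebpd at 0.68 (adjusted p = 0.0024 with edgeR) and Cebpb at -0.40 (adjusted p = 0.0080) passed. Of all tested genes, 2581 were called higher and 3146 lower in that fit, against 1534 and 2221 with all libraries. Passing there is thus not particular to Cebpd and Cebpb.

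The central pair moved least. Pparg (ENSMUSG00000000440, chr6:115360951-115490399, plus strand, 13 exon blocks) was at 164, 209, 183 and 197 CPM in LRG1 mice, against 168, 153, 147 and 148 CPM in eGFP mice. The groups overlapped, since LRG1 replicate 1 lay below eGFP replicate 1, and the log2 fold change was 0.29 (SE 0.12, adjusted p = 0.073 with edgeR). Cebpa (ENSMUSG00000034957, chr7:35119293-35121928, plus strand, 1 exon) was at 237, 229, 296 and 228 CPM in LRG1 mice, against 202, 220.2, 210.1 and 224 CPM in eGFP mice. LRG1 replicate 3 was far above the rest, the other 3 LRG1 mice were only just above the highest eGFP mouse, and the log2 fold change was 0.21 (SE 0.12, adjusted p = 0.19 with edgeR).

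Rxra (ENSMUSG00000015846, chr2:27676440-27762957, plus strand, 14 exon blocks), the partner of PPARG, was at 149, 139, 177 and 151 CPM in LRG1 mice, against 109, 115, 113 and 123 CPM in eGFP mice. The groups did not overlap, and the log2 fold change of 0.42 (SE 0.09, adjusted p = 0.0020 with edgeR) was the smallest of the 5 called, with the smallest error. Klf15 (ENSMUSG00000030087, chr6:90462576-90475238, plus strand, 5 exon blocks) was at 37.2, 34.2, 48.4 and 33.2 CPM in LRG1 mice, against 15.5, 14.5, 17.98 and 20.5 CPM in eGFP mice. Every LRG1 mouse was more than 10 CPM above every eGFP mouse, and the log2 fold change of 1.16 (SE 0.30, adjusted p = 0.0090 with edgeR) was the largest of the 9.

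These calls lie near the threshold. Rxra was called in all 16 fits that left out a library, Ebf2 in 14, Ebf1 in 11, Zfp423 in 9 and Klf15 in 4, and the largest adjusted p among the fits that lost a call was 0.033, for Klf15. Leaving out 1 library left 1 to 6 of the 9 factors called at week 7, with 1 called without eGFP replicate 3 of week 7, 2 without each of LRG1 replicates 3 and 4 and eGFP replicates 1, 2 and 4 of week 7, 3 without LRG1 replicate 1 of week 7, and 4 to 6 without any other library. With totals as the only scaling no factor was called, but the median of all genes then moved to -0.15, and the log2 fold changes of the 5 were 0.26 (Rxra) to 0.99 (Klf15).

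Markers of other cells differed between the same groups. Of 14 macrophage markers 13 fell at week 7, with a summed level of 2424 to 2762 CPM in LRG1 mice and 5193 to 6675 CPM in eGFP mice. All 8 T cell markers fell, at 4.34 to 14.2 CPM in LRG1 mice and 37.6 to 76.4 CPM in eGFP mice. Of 8 endothelial markers 6 rose, at 495 to 670.2 CPM in LRG1 mice and 279.5 to 364 CPM in eGFP mice. Of 8 mural cell markers 3 rose, at 664 to 722.5 CPM in LRG1 mice and 408.5 to 461 CPM in eGFP mice. Of 14 markers of adipose progenitors 4 rose and 2 fell, at 2620 to 3165 CPM in LRG1 mice and 2309 to 2561 CPM in eGFP mice. None of 7 mesothelial markers passed the test, but their sum did not overlap, at 147 to 221 CPM in LRG1 mice and 83.7 to 140.0 CPM in eGFP mice. B cell markers, of which none of 7 passed the test, summed to 4.54 to 14.8 CPM in LRG1 mice and 5.97 to 19.5 CPM in eGFP mice. The share of counts from mitochondrial ribosomal RNA was 27.1% to 30.4% in LRG1 mice and 24.1% to 25.9% in eGFP mice of week 7, also without overlap. No marker of these lists was at 0 in all libraries, and the part of these cells in the differences of the 9 factors was not tested. With the genes of mitochondrial DNA left out, 5 of the 9 were called at week 7 and 2 at week 10. Of all tested genes, 1571 were then called higher and 2173 lower at week 7, and 790 and 1062 at week 10.

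**Figure D3:**
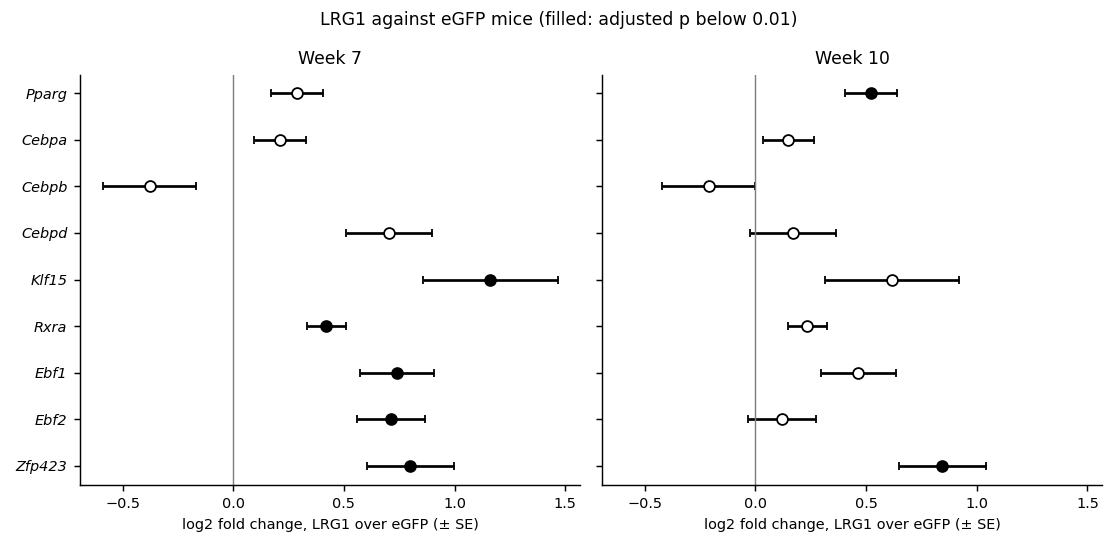
The log2 fold change of LRG1 over eGFP mice for each factor, with bars of 1 SE, at week 7 (left) and week 10 (right), from edgeR with 4 mice per group. Filled points passed an adjusted p of 0.01: 5 at week 7, led by Klf15 at 1.16, and 2 at week 10, Pparg at 0.52 and Zfp423 at 0.84.

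At week 10, 2 of the 9 factors were higher in LRG1 mice, Zfp423 by 1.80-fold and Pparg by 1.44-fold, and none was called lower, with edgeR at an adjusted p below 0.01. Of all tested genes, 3.66% were called higher and 5.24% lower. The median log2 fold change was 0.24 over the 9 factors and -0.0047 over all tested genes. LRG1 and eGFP mice did not overlap in 3 factors, Zfp423, Pparg and Rxra, each higher in LRG1 mice, against 9.96% of all tested genes (10.1% were lower without overlap), and overlapped in 6.

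Zfp423 was at 72.7, 72.6, 78.0 and 82.5 CPM in LRG1 mice of week 10, against 28.3, 55.6, 29.0 and 57.3 CPM in eGFP mice. The groups did not overlap, but eGFP replicates 1 and 3 were far below eGFP replicates 2 and 4. The log2 fold change was 0.84 (SE 0.20, adjusted p = 0.0077 with edgeR) with all 4 eGFP mice and 0.44 (adjusted p = 0.049) without replicates 1 and 3.

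Pparg was at 173, 169.9, 201 and 183 CPM in LRG1 mice, against 98.2, 149.7, 115 and 143 CPM in eGFP mice. Every LRG1 mouse lay above every eGFP mouse, and replicates 1 and 3 were again the lowest. The log2 fold change was 0.52 (SE 0.12, adjusted p = 0.0066 with edgeR), and 0.31 (adjusted p = 0.083) without replicates 1 and 3. No factor was called when any of the 4 LRG1 mice of week 10, eGFP replicate 1 or eGFP replicate 3 was left out on its own, and 3 were called without eGFP replicate 2. Over all fits that left out 1 library, 284 to 3647 of all tested genes were called at week 10. Fitted with edgeR on the 8 libraries of week 10 alone, Pparg at 0.53 (adjusted p = 0.053) and Zfp423 at 0.85 (adjusted p = 0.061) did not pass. Only 12 of all tested genes passed in that fit, so this is not particular to the 2 factors. With totals as the only scaling, Pparg at 0.50 (adjusted p = 0.018) and Zfp423 at 0.81 (adjusted p = 0.020) did not pass either. Rxra, the partner of PPARG, was at 151, 144, 158 and 149 CPM in LRG1 mice, against 112, 133, 123 and 144 CPM in eGFP mice. The groups touched without overlapping, and the log2 fold change was 0.24 (SE 0.09, adjusted p = 0.060 with edgeR), and 0.12 (adjusted p = 0.50) without replicates 1 and 3.

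Klf15 was at 42.5, 34.3, 44.7 and 35.3 CPM in LRG1 mice of week 10, against 10.3, 36.8, 16.2 and 38.8 CPM in eGFP mice. Replicates 2 and 4 of the eGFP mice lay among the LRG1 mice and replicates 1 and 3 far below, which put the coefficient of variation at 13.2% in LRG1 mice and 56.4% in eGFP mice. The log2 fold change was 0.62 (SE 0.30, adjusted p = 0.15 with edgeR), and 0.053 (adjusted p = 0.90) without replicates 1 and 3. Ebf1 had the same split: it was at 184, 199.5, 186 and 168 CPM in LRG1 mice, against 93.4, 185, 98.5 and 157 CPM in eGFP mice. Its log2 fold change was 0.46 (SE 0.17, adjusted p = 0.057 with edgeR), and 0.11 (adjusted p = 0.61) without replicates 1 and 3.

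In Cebpb the split ran the other way. It was at 21.3, 16.8, 14.9 and 15.4 CPM in LRG1 mice, against 28.0, 11.8, 24.4 and 14.9 CPM in eGFP mice, so that eGFP replicates 1 and 3 were the highest of all 16 libraries and replicate 2 the lowest. The log2 fold change of -0.21 (SE 0.21, adjusted p = 0.50 with edgeR) turned to 0.36 (adjusted p = 0.22) without replicates 1 and 3. Cebpd, at 27.5, 25.7, 29.8 and 21.9 CPM in LRG1 mice and at 19.2, 26.8, 15.7 and 31.3 CPM in eGFP mice, overlapped widely, with a log2 fold change of 0.17 (SE 0.19, adjusted p = 0.56 with edgeR), and of -0.15 (adjusted p = 0.71) without replicates 1 and 3.

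Cebpa and Ebf2 were closest between the groups at week 10. Cebpa was at 202, 185.0, 214 and 182 CPM in LRG1 mice, against 138, 196, 165 and 208 CPM in eGFP mice. Only eGFP replicates 1 and 3 lay below the LRG1 mice, and the log2 fold change was 0.15 (SE 0.12, adjusted p = 0.38 with edgeR), and -0.043 (adjusted p = 0.87) without them. Ebf2 was at 19.7, 26.0, 33.8 and 26.7 CPM in LRG1 mice, against 20.7, 30.6, 20.7 and 25.8 CPM in eGFP mice. These groups lay on top of each other, with a log2 fold change of 0.12 (SE 0.15, adjusted p = 0.62 with edgeR), and of -0.087 (adjusted p = 0.83) without replicates 1 and 3. The coefficient of variation of Ebf2 in LRG1 mice was 21.8% at week 10 and 4.95% at week 7.

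The same eGFP libraries differed in other gene groups. The summed level of 8 mural markers was 246 and 220.4 CPM in replicates 1 and 3, and 495 and 457 CPM in replicates 2 and 4. That of 8 endothelial markers was 245 and 285 CPM in replicates 1 and 3, and 523 and 483 CPM in replicates 2 and 4, and that of 35 PPARG target genes was 32900 and 40520 CPM in replicates 1 and 3, and 49780 and 50350 CPM in replicates 2 and 4. The summed level of 14 progenitor markers did not split this way, at 2969 and 2565 CPM in replicates 1 and 3, and 3091 and 2861 CPM in replicates 2 and 4. Such sums follow their most abundant genes. In the eGFP mice of week 10, Dcn averaged 1392 CPM of a mean progenitor sum of 2871 CPM. Lyz2 averaged 2410 CPM of a mean macrophage sum of 6045 CPM. The mesothelial sum was 98.6 and 63.5 CPM in replicates 1 and 3, and 189 and 192 CPM in replicates 2 and 4. Between the treatments at week 10, the macrophage sum was 2272 to 3039 CPM in LRG1 mice and 3421 to 8243 CPM in eGFP mice, and 12 of its 14 markers fell. The T cell sum was 5.97 to 12.2 CPM in LRG1 mice and 18.6 to 24.8 CPM in eGFP mice, with 4 of 8 markers fallen, and the mural sum was 602 to 915 CPM in LRG1 mice and 220.4 to 495 CPM in eGFP mice, with 2 of 8 risen, neither with overlap. Other sums overlapped between LRG1 and eGFP mice. They were the endothelial (510.5 to 784 and 245 to 523 CPM, 1 of 8 risen) and progenitor sums (2674 to 2980 and 2565 to 3091 CPM, 2 of 14 fallen and 0 risen). The mesothelial sum, at 153 to 212 and 63.5 to 192 CPM, overlapped too, with none of 7 markers called. The part of these cells in the values of the 9 factors was not tested.

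**Figure D4:**
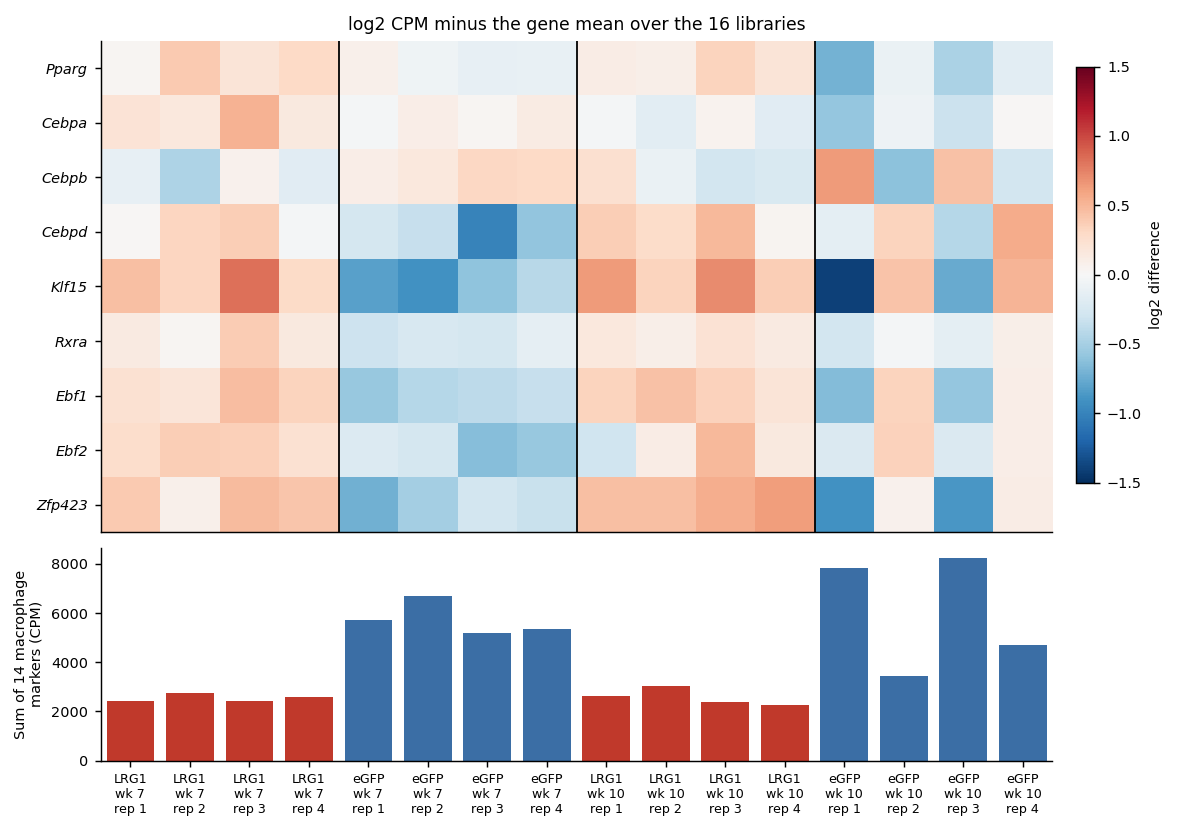
Above, log2 CPM of each factor minus its mean over the 16 libraries (red higher, blue lower), with 1 column per library in the order LRG1 and eGFP of week 7, then LRG1 and eGFP of week 10. Below, the summed CPM of 14 macrophage markers in the same libraries; eGFP replicates 1 and 3 of week 10, at 7823 and 8243 CPM, are also those with the lowest Klf15 among the mice of week 10, at 10.3 and 16.2 CPM.

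Between the ages, none of the 9 factors passed the test in LRG1 mice. Of all tested genes 0.00961% were called, and 1 of the 9 was at an unadjusted p below 0.05 against 8.39% of all tested genes. That gene was Cebpa, at 182 to 214 CPM in LRG1 mice of week 10 and 228 to 296 CPM in LRG1 mice of week 7. It was the only factor whose weeks did not overlap in LRG1 mice, with a log2 fold change of -0.34 (SE 0.12, adjusted p = 0.45 with edgeR), where 3.41% of all tested genes were lower and 3.64% higher without overlap. The other 8 log2 fold changes lay between -0.16 (Ebf2) and 0.17 (Zfp423).

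In eGFP mice also none passed in the comparison of week 10 with week 7, where 2.14% of all tested genes were called with edgeR, and 4 of the 9 were at an unadjusted p below 0.05 against 19.8% of all tested genes. Cebpd came closest, at 15.7 to 31.3 CPM at week 10 and 10.6 to 17.7 CPM at week 7, with a log2 fold change of 0.66 (SE 0.20, adjusted p = 0.061). Ebf2 was at 20.7 to 30.6 CPM at week 10 and 15.5 to 20.8 CPM at week 7 (log2 fold change 0.43, SE 0.15, adjusted p = 0.12). Pparg and Cebpa were lower at week 10, with log2 fold changes of -0.28 each (SE 0.12 each, adjusted p = 0.19 and 0.20), and no factor separated the weeks, as 4.08% of all tested genes did with higher and 6.89% with lower levels at week 10. Replicates 2 and 4 alone, set against the 4 eGFP mice of week 7, put Klf15 at 1.14, Cebpd at 0.97, Ebf1 at 0.65, Zfp423 at 0.53 and Cebpb at -0.65, all past the threshold, as did 2209 of all tested genes in that fit, against 446 with all libraries. With these 2 mice Pparg at -0.076 (adjusted p = 0.64 with edgeR) and Cebpa at -0.085 (adjusted p = 0.62) did not pass. Ebf2 at 0.64 (adjusted p = 0.011) and Rxra at 0.26 (adjusted p = 0.041) did not pass either. Those 2 mice were picked out by their marker levels, which narrows the spread of their group, so these values describe them and are no test of age.

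The difference between the LRG1 effects of weeks 10 and 7 passed for none of the 9 factors in edgeR, and for 0.327% of all tested genes. At an unadjusted p below 0.05 there was 1 factor, against 9.38% of all tested genes: Ebf2, with a difference of -0.60 on the log2 scale (SE 0.22, adjusted p = 0.32). Cebpd at -0.53 (SE 0.28) and Klf15 at -0.54 (SE 0.43) were also negative, and Pparg at 0.23 (SE 0.17) was positive. An effect called at one week and not at the other is thus not shown to differ between weeks. Without eGFP replicates 1 and 3 of week 10 the differences of Klf15, -1.11 (adjusted p = 0.0048), and Ebf1, -0.63 (adjusted p = 0.0064), passed, as did 466 of all tested genes, against 68 with all libraries, and the same reservation holds on how those mice were picked. In that edgeR fit Ebf2 at -0.80 (adjusted p = 0.030), Cebpd at -0.85 (adjusted p = 0.031) and Pparg at 0.025 (adjusted p = 0.94) did not pass.

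The factors were also set beside 60 other regulators of adipogenesis. At week 7, 8 of the 60 rose in LRG1 mice and 4 fell with edgeR, beside 7.37% and 10.7% of all tested genes, and their median log2 fold change was 0.04. The balance of directions depended on the scaling: with totals only, 2 of the 60 rose and 9 fell, and of all tested genes 341 were called higher and 3636 lower, against 1534 and 2221 with TMM. Of 20 regulators that promote adipogenesis or adipocyte gene expression, 3 rose and 3 fell. Those that rose were Nfia, a nuclear factor that acts with PPARG at brown fat genes (142 CPM in LRG1 mice and 84.1 CPM in eGFP mice, log2 fold change 0.76, SE 0.12), Klf9, a Kruppel-like factor that activates Pparg2 (206 and 134 CPM, 0.61, SE 0.11), and Ebf3, the third early B cell factor of this family (22.02 and 12.2 CPM, 0.85, SE 0.19). Those that fell were Egr2, an early inducer of the cascade that macrophages also use (8.84 CPM in LRG1 mice and 26.4 CPM in eGFP mice, -1.58, SE 0.39), Stat5b, a mediator of growth hormone signals (40.9 and 51.6 CPM, -0.34, SE 0.08), and Creb1, which responds to cyclic AMP (44.6 and 56.4 CPM, -0.34, SE 0.09).

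Of 20 regulators that restrain adipogenesis or mark a competing lineage, 4 rose at week 7 and none fell. The named ones were Nr2f2, a nuclear receptor of mesenchyme and veins (18.2 CPM in LRG1 mice and 12.2 CPM in eGFP mice, log2 fold change 0.57, SE 0.10), Zeb1, a zinc finger repressor that in mice has also been tied to the onset of adipogenesis (61.6 and 43.2 CPM, 0.51, SE 0.10), and Zfp521, an inhibitor of EBF1 and of Zfp423 (14.7 and 9.59 CPM, 0.62, SE 0.14). Of 13 coactivators and corepressors 1 rose and 1 fell: Ncoa3, a steroid receptor coactivator, was at 58.3 CPM in LRG1 mice and 98.0 CPM in eGFP mice (-0.75, SE 0.14). Of 7 further relatives of the 9 factors, a group that leaves out Ebf3 and Klf9 named above, none passed, among them Rxrb at -0.30 (SE 0.08), Ppara at 0.60 (SE 0.20) and Cebpg at -0.044 (SE 0.09).

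At week 10, 3 of the 60 regulators rose and 2 fell with edgeR, beside 3.66% and 5.24% of all tested genes. Mlxipl, which encodes the glucose sensor ChREBP, was at 45.0 CPM in LRG1 mice and 22.6 CPM in eGFP mice (log2 fold change 0.99, SE 0.19), Nfib at 211 and 148 CPM (0.51, SE 0.12) and Nfia at 127 and 90.8 CPM (0.49, SE 0.12). Egr2 was at 6.29 CPM in LRG1 mice and 19.9 CPM in eGFP mice (-1.66, SE 0.39) and Ncoa3 at 55.5 and 81.5 CPM (-0.56, SE 0.14). Nfia, Egr2 and Ncoa3 were called at both weeks. None of the 5 was called in the 8 libraries of week 10 alone or without eGFP replicates 1 and 3, where 12 and 161 of all tested genes were called.

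Of 36 genes that PPARG binds or induces in adipocytes, 35 were matched and tested. At week 7, 10 of the 35 rose in LRG1 mice and 1 fell with edgeR, beside 7.37% and 10.7% of all tested genes, with a median log2 fold change of 0.55. Slc2a4, the insulin-responsive glucose transporter, was at 75.2 CPM in LRG1 mice and 33.4 CPM in eGFP mice (log2 fold change 1.17, SE 0.21), and Acvr1c, the activin receptor ALK7 of adipocytes, at 231 and 110.2 CPM (1.07, SE 0.19). Scd1, a fatty acid desaturase (1.00, SE 0.19), Cidec, a lipid droplet protein (0.78, SE 0.16), and Cidea, its brown fat relative (1.80, SE 0.38, at 5.26 CPM in LRG1 mice and 1.51 CPM in eGFP mice), rose too. None of 6 other markers of brown adipocytes passed at week 7. Their sum overlapped, at 20.8 to 29.9 CPM in LRG1 mice and 21.1 to 26.4 CPM in eGFP mice. Plin2, a droplet coat protein that lipid-laden macrophages also make, fell, at 614 CPM in LRG1 mice and 1142 CPM in eGFP mice (-0.90, SE 0.23). The best known adipocyte products Adipoq (0.97, SE 0.28, adjusted p = 0.015) and Fabp4 (0.31, SE 0.18, adjusted p = 0.20) did not pass.

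At week 10, 2 of the 35 targets rose and 1 fell with edgeR, near the 3.66% and 5.24% of all tested genes. Those that rose were Dgat2, which makes triglyceride (0.94, SE 0.18), and Lep, leptin (5149 CPM in LRG1 mice and 2313 CPM in eGFP mice, 1.16, SE 0.26). Plin2 fell again (-0.97, SE 0.23), and the median over the 35 was 0.44. None of the 35 was called in the 8 libraries of week 10 alone, and 1 without eGFP replicates 1 and 3. In these fits 12 and 161 of all tested genes were called. No gene of either list was called between the weeks in LRG1 or in eGFP mice, or in the difference of effects, where 0.00961%, 2.14% and 0.327% of all tested genes were called.

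**Figure D5:**
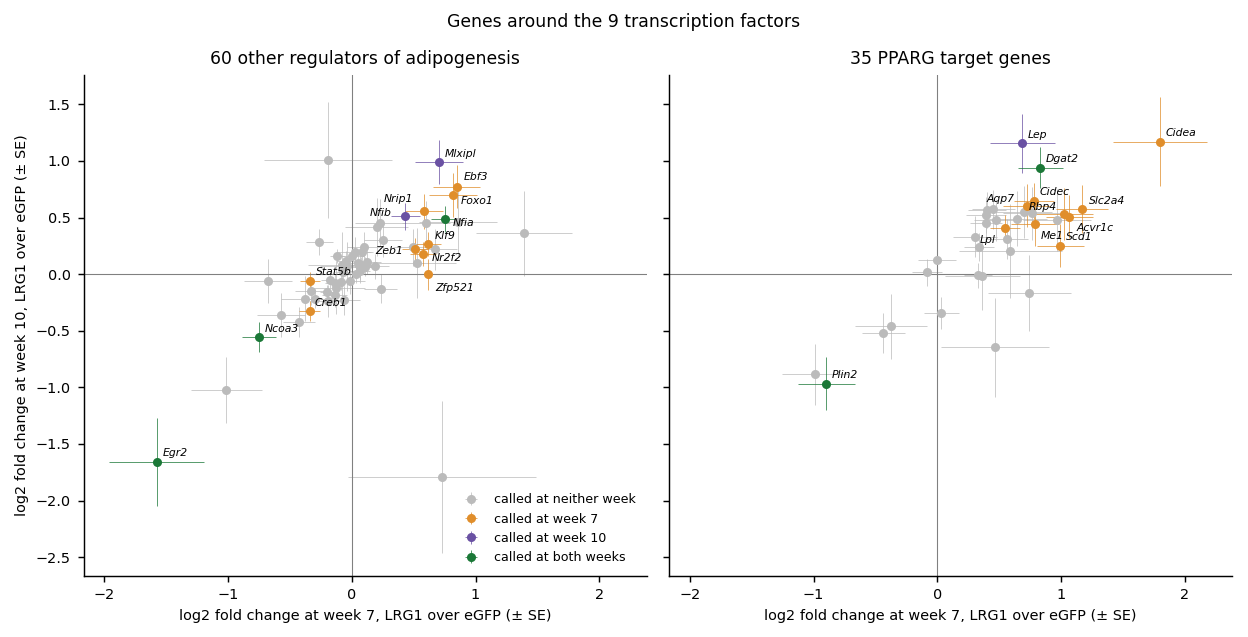
Log2 fold changes of LRG1 over eGFP mice at week 7 (x axis) and week 10 (y axis), with bars of 1 SE, for 60 other regulators (left) and 35 PPARG targets (right), coloured by the weeks at which they passed an adjusted p of 0.01 with edgeR. Egr2, at -1.58 and -1.66, lies lowest among the called regulators, and Cidea, at 1.80 at week 7, farthest to the right among the targets.

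The profiles of the 9 factors over the 16 libraries were compared by the root mean square difference of their log2 CPM, each taken about its own mean; all libraries share their scaling, so this likeness is a description. Among the 9, Ebf1 and Zfp423 were most alike at 0.19, followed by Pparg and Cebpa at 0.21. Cebpb and Klf15 were least alike at 0.93, and every pair with Cebpb was at 0.46 or more.

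Among the 14176 tested genes averaging at least 1 CPM, the gene most like Pparg was Qsox1 (0.099), followed by Marc2 and Cisd1. Cebpa was closest to Cox8a (0.095), Abhd17a and Timm23, and Rxra to Tbl1x (0.059), Aasdhppt and Pex3. Cebpb was closest to Abhd17c (0.16), Insig1 and Itgav, Cebpd to Suox (0.19), Hoxd8 and Ndrg1, and Klf15 to Dhtkd1 (0.19), Bche and Pxmp2. Zfp423 was closest to Npr3 (0.068), Asrgl1 and Cnnm2, Ebf1 to Nedd4 (0.086), Peli2 and Zhx2, and Ebf2 to Ecm2 (0.15), Cldn15 and Zeb1. This measure grows with a gene's own spread, which was 0.67 for Klf15 and 0.20 for Rxra, so it does not rank the factors against each other. None of the 9 was among the 3 nearest of another.

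Exons of 4 of the 9 genes overlap a gene on the opposite strand, and the strand setting of the counting is not given in the sources used here. Cebpb shares 312 bases with Tmem189, whose log2 fold change was -0.22 (SE 0.09) at week 7 and -0.23 (SE 0.09) at week 10, neither called with edgeR. Cebpd shares 562 bases with Spidr (-0.05, SE 0.10 at week 7), Cebpa 51 bases with Gm45091, and Ebf2 424 bases with Gm10860, which had at most 12 counts in a library. Reads from these stretches cannot be told apart without strand. The levels of these 4 factors, and of Cebpb and Cebpd most, may thus include reads of the partner or lack reads of their own. Which of these holds depends on counting settings that are not given.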

How the data were processed

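Counts per gene were analysed for eWAT RNA from 16 db/db mice, 4 in each of 4 groups taken from the labels. Per the labels and the paper's methods, the authors trimmed reads with cutadapt, aligned them with STAR to GRCm38 (mm10) and counted them with featureCounts; versions, strand and multi-mapping settings are not given in the sources used here. The deposited counts are not normalized and total 45376227 to 67539937 per library. The gene length deposited in the same table, in bases, was used for levels per kb. Each library is a mouse. The p-values rest on the spread between mice within groups, estimated per gene over all 4 groups together, and this spread may include cage effects. It is therefore not the spread of only the groups compared. For Klf15 the SD of log2 CPM reached 0.93 among eGFP mice of week 10, while the other groups had 0.19 to 0.25. With only the 8 libraries of week 10 fitted, 12 genes were called at that week, against 1854 as reported.

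Of 55573 genes, 55394 were matched to a symbol. One coefficient per group was fitted to the 16 libraries together by edgeR 4.0.16 under R 4.3.3, after filterByExpr had kept 20822 genes and TMM had set scaling factors of 0.847 to 1.10. Contrasts were judged by the quasi-likelihood F test, and p-values were adjusted after Benjamini-Hochberg and called below 0.01. Dividing a log2 fold change by the root of its F statistic gave its SE. The common coefficient of biological variation was 0.203. CPM used TMM-adjusted totals, and profiles used log2 CPM with a prior count of 2. The procedure was tested on simulated data. Alternatives were RLE, upper quartile and total scaling, removal of mitochondrial genes, other filters, DESeq2 1.42.0, limma-voom 3.58.1, the 8 libraries compared alone, the replicate number as a block, an adjusted p below 0.05, and leaving out each library.

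The 9 factors and the lists of other regulators, PPARG targets and cell markers were chosen with earlier results of these data known. Of the other regulators, up to 6 genes per direction with the smallest adjusted p among those called are named at each week, and of the PPARG targets up to 5; the genes named as not called (Rxrb, Ppara, Cebpg, Adipoq and Fabp4) were chosen after their values were seen. For each factor the 3 genes of nearest profile are named. Promoters are RefSeq windows of GRCm38.p6.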

Additional observations from a re-analysis of the deposited data

Results flagged for a closer look

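Cebpa, the factor that sustains the mature adipocyte together with PPARG, was at 296 CPM in replicate 3 of the LRG1 mice of week 7, while the other 3 LRG1 mice lay at 228 to 237 CPM. Taken on log2 CPM, the gap to the nearest mouse was 0.848 of the range of the group, above Dixon's limit for 4 samples. This was the only such value among the 36 groups examined (9 factors in 4 groups), and chance gives about 1 in 20 groups. The same mouse also had the highest Cebpb, Cebpd, Klf15, Rxra, Ebf1 and Zfp423 of its group.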

How the results depend on the processing

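Over the other settings that kept every library, 0 to 7 factors were called at week 7 (5 as reported) and 0 to 2 at week 10 (2 as reported); none was called in the comparisons of weeks or in the difference of effects. With totals as the only scaling 0 were called at week 7 and 0 at week 10, and with only the 8 libraries of week 10 also 0. Leaving out each library in turn gave 1 to 6 called at week 7 and 0 to 3 at week 10. Without eGFP replicates 1 and 3 of week 10, a setting chosen after seeing the data, 0 were called at week 10, 5 between the weeks in eGFP mice and 2 in the difference of effects, where 161, 2209 and 466 of all tested genes were called (1854, 446 and 68 as reported). The replicate numbers do not pair the mice (24 pairs of equal number, median correlation -0.013, -0.20 to 0.14, and 4 of 16 libraries closest to their own number). With the number as a block, 4 factors were called at week 7 and 2 at week 10. Of all tested genes, 1270 were then called higher and 1978 lower at week 7, and 532 and 642 at week 10.

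No called log2 fold change of a factor changed sign under any of these settings. Without those eGFP replicates the log2 fold change at week 10 was -0.043 for Cebpa, 0.36 for Cebpb, -0.15 for Cebpd and -0.087 for Ebf2, and the difference of effects was -0.36 for Zfp423. With totals as the only scaling Rxra was at 0.0065 between the weeks in LRG1 mice and Cebpa at 0.084 in the difference of effects. Leaving out single libraries gave ranges across 0 at week 10 for Cebpb (-0.40 to 0.0064) and Ebf2 (-0.020 to 0.25); between the weeks in LRG1 mice for Pparg (-0.11 to 0.0048), Cebpb (-0.048 to 0.16), Klf15 (-0.033 to 0.17), Rxra (-0.080 to 0.042) and Ebf1 (-0.017 to 0.078); between the weeks in eGFP mice for Cebpb (-0.30 to 0.098) and Zfp423 (-0.048 to 0.28); and in the difference of effects for Cebpa (-0.16 to 0.036), Cebpb (-0.017 to 0.39) and Zfp423 (-0.11 to 0.22). The causes were not tested.

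Counts over the lists varied more. With every library kept, 11 to 25 of the 60 regulators and 7 to 26 of the 35 targets were called at week 7 (12 and 11 as reported), and 0 to 11 and 0 to 13 at week 10 (5 and 3 as reported). Over all tested genes the counts were 3248 to 6555 at week 7 (3755 as reported) and 12 to 4761 at week 10 (1854 as reported), the lowest at week 10 with only its 8 libraries. Leaving out single libraries gave 6 to 17 regulators, 4 to 16 targets and 2239 to 4412 of all tested genes at week 7, and 0 to 10, 0 to 14 and 284 to 3647 at week 10. The split of all calls was 1534 higher and 2221 lower at week 7 and 762 higher and 1092 lower at week 10. With totals as the only scaling it was 341 higher and 3636 lower, and 320 higher and 1136 lower. At week 10 it was 804 higher and 639 lower with limma-voom, and 2 higher and 10 lower in the 8 libraries of that week alone. PPARG targets at week 7 split into 4 risen and 3 fallen with totals only, against 10 and 1. The precision is limited by 4 mice a group, and at week 10 by the spread of the eGFP mice. Ranked by the median per kb in place of the mean, 7 of the 9 factors held their place, and Klf15 and Cebpb changed places.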
